A study of Mus musculus with 2 samples.

Results

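Leukocyte integrins are the adhesion receptors of white blood cells. The group described here was a fixed set of 10 mouse genes, made of 6 alpha chains (Itgax, Itgam, Itgal, Itga4, Itgae and Itgav) and 4 beta chains (Itgb2, Itgb1, Itgb7 and Itgb3). Probes were assigned to them through their transcript accession in RefSeq, which gave 18 probes out of 56603 on the array and all 10 genes out of 23786 genes with a named probe. The series set bone marrow-derived dendritic cells of C57BL/6J mice labelled EGR1-deficient against cells of C57BL/6J mice labelled wild type (WT). Both samples are labelled male, and both were grown from femoral marrow with 10 ng/ml GM-CSF and harvested on day 6. GM-CSF is a cytokine under which marrow precursors become a mixture of dendritic-like and macrophage-like cells. EGR1 is a DNA-binding zinc-finger protein that cells make quickly after many stimuli. How the Egr1 allele was made, and whether animals were pooled, are not given in the sources used here.

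An integrin is a pair of 1 alpha and 1 beta chain, and a chain reaches the cell surface only once it has found its partner. The beta chain binds talin and kindlin inside the cell, which switches the receptor to the state that grips its ligand, while the alpha chain largely decides which ligand is gripped. On dendritic cells and macrophages the Itgb2 group takes up complement-coated particles and binds ICAMs, the Itga4 pairs bind VCAM-1, MAdCAM-1 and fibronectin, and the Itgav pairs bind RGD-bearing proteins and apoptotic cells through bridging molecules. Itgax (CD11c), Itgam (CD11b) and Itgae (CD103) also serve as surface markers for sorting dendritic cell subsets.

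There was 1 one-colour Agilent array per label, so there is no p-value, and differences have no replicate check. On the array labelled EGR1-deficient 59.8% of 59305 spots were well above background, against 55.2% on the WT array, and no spot was saturated. Values are the scanner program's processed signal, and differences are log2 signal minus the array's own 75th percentile, array labelled EGR1-deficient minus WT. That percentile was 191.6 on the array labelled EGR1-deficient and 183.0 in WT, and printed signals are not scaled by it. The only errors are technical. Probes printed at least 5 times gave a median SD of 0.07 log2 units for such a difference, and for genes with 2 probes the SD between them was 0.17 in the median and 0.31 as a root mean square. Egr1 itself read 1212 on the array labelled EGR1-deficient against 380 in WT, a difference of 1.61 from 1 probe of unknown place in the gene, so it does not bear out the labels. Xist, normally made in female cells, read 4559 on the array labelled EGR1-deficient against 3425 in WT, which goes against the male label of both samples. Every direction below rests on the labels as given.

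The integrins were measured at close to the same level on both arrays. For 9 of the 10 genes the probe was well above background on both, as for 57.7% of all genes with a probe, whereas Itgae was not well above it on either. Of these 9 genes, 5 were higher and 4 lower on the array labelled EGR1-deficient, where 42.6% of all 13725 genes above background on both arrays were higher and 57.4% lower. None of the 9, and none of their 16 probes, differed by 2-fold or more, where 1.71% of all genes did (0.707% higher and 1.01% lower, a split of 97 against 138 genes). That split was 77 against 174 after quantile normalization, 73 against 184 after loess and 103 against 68 in the authors' series table. The median difference was 0.01 over the 9 genes and −0.05 over all genes. The furthest from 0 were Itgax at 0.37 and Itgav at −0.47. Fewer cells of a type and less RNA per cell cannot be told apart in such bulk RNA.

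**Figure D1:**
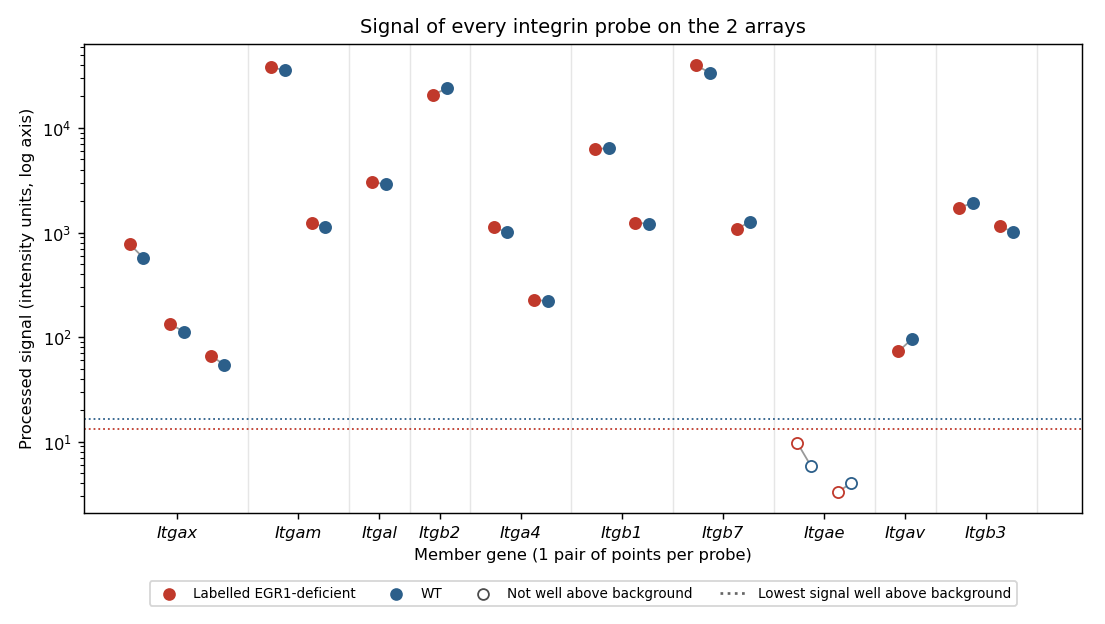
Processed signal (intensity units, log axis) of each of the 18 integrin probes on the array labelled EGR1-deficient (red) and on the WT array (blue), joined per probe, 1 reading each. Both Itgae probes (open) lie under the dotted lines that mark the detection limit (the lowest signal well above background), which was 13.3 for the array labelled EGR1-deficient and 16.3 in WT, and each other pair of points lies close together.

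Itgb2 encodes CD18, the beta chain shared by LFA-1, Mac-1 and p150,95, and its loss causes leukocyte adhesion deficiency in people. Its only probe read 20790 on the array labelled EGR1-deficient against 23844 in WT, a difference of −0.26. The scanner program's own error for that difference is 0.20, and 21.2% of all genes were at least as far below 0. Itgb2 was lower in each of the 8 processing settings tried, between −0.26 and −0.11. Of these, the 2 filters leave a measured gene's value unchanged, as does the mean over probes for a gene with 1 probe. Agreement in those settings is fixed in advance, here and for the genes and pairs below.

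The alpha partners of Itgb2 read at or above the WT level. Itgal, the CD11a chain of LFA-1 that binds ICAM-1, read 3040 on the array labelled EGR1-deficient, against 2881 in WT, a difference of 0.01 from 1 probe. Itgam, the CD11b chain of the complement receptor Mac-1, read 37962 on the array labelled EGR1-deficient, against 35671 in WT, with its brighter probe (0.02). The other probe read 1233 there, against 1123 in WT (0.07). These differences are smaller than the median SD of 0.17 between probes of a gene. That of Itgal was below 0 after normexp background correction, at −0.05, and above 0 in the other settings.

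Itgax, the CD11c chain by which dendritic cells are commonly sorted, was higher in each of its 3 probes on the array labelled EGR1-deficient. The brightest read 777 there against 572 in WT, 1.30-fold higher (0.37, scanner error 0.20). The second read 133.5 there against 113 in WT (0.18). The third, assigned to another transcript accession of the gene, read 66.4 there against 54.6 in WT (0.21). The 3 probes gave 0.26 ± 0.10 (SD over probes of the same RNA, which are not replicates). Of all genes, 8.78% were at least as far above 0 as the brightest probe. Among the 686 genes in the same of 20 bins of mean signal, Itgax lay above the 95th percentile, which was 0.27. Its other 2 probes lay inside the 5th to 95th percentile of their bins. Itgax was above 0 in all 8 settings, from 0.26 to 0.49.

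Itgam and Itgax stand side by side on chromosome 7, followed by Itgad, the CD11d chain, with only pseudogenes listed between them in the RefSeq gene order. The brightest Itgad probe was not well above background. The stretch of 250 bases before to 50 after a RefSeq start (assembly GRCm38.p6) is shown for the genes furthest from 0 in each direction that have one, Itgax and Itgav, and for Itgb7, the other gene with a motif match. Capitals mark the letters of the PU.1 motif GAGGAAGT, searched on both strands. PU.1 is a myeloid transcription factor.
Itgax, chr7:128129300-128129599, plus strand: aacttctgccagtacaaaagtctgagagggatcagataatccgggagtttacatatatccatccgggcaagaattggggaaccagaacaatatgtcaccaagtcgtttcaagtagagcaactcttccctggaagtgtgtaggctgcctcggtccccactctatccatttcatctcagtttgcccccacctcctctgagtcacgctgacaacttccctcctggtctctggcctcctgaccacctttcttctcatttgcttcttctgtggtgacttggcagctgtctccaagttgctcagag
Itgav, chr2:83724147-83724446, plus strand: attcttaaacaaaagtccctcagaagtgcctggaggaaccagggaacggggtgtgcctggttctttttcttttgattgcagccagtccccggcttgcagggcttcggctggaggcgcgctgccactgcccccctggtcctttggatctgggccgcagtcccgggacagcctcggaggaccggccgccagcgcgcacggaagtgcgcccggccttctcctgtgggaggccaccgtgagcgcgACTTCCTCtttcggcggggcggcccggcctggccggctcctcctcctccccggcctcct
Itgb7, chr15:102231886-102232185, minus strand: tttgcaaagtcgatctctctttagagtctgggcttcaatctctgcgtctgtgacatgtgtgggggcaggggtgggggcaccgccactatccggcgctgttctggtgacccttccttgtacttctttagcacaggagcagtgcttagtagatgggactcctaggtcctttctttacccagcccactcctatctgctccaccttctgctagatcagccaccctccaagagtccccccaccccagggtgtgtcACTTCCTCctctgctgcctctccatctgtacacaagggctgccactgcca
A RefSeq stretch was at hand for 6 of the 10 genes: these 3, Itgam, Itga4 and Itgb1. The EGR motif GCGNGGGCG, searched on both strands, was in none of the 6, and in 5.55% of 32851 such stretches. The PU.1 motif was in 2 of the 6 and in 3.20% of all. It starts 9 bases before the annotated start in Itgav and at the start itself in Itgb7, reads on the opposite strand in both, and overlaps no EGR match. The Itgax stretch holds 5 CG pairs and that of Itgav 24, against a median of 7 over all stretches. A match is a description of letters, not of binding.

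Itga4 encodes CD49d, the alpha chain of VLA-4 and of the gut-homing integrin. Its brighter probe read 1121 on the array labelled EGR1-deficient, against 1003 in WT (0.09), and the other 227 there against 221 in WT (−0.03). Itgb1, the CD29 chain that pairs with many alpha chains, read 6329 on the array labelled EGR1-deficient, against 6366 in WT (−0.07). Its other probe read 1241 there against 1212 in WT (−0.03). All 4 values are smaller than the median SD of 0.17 between probes of a gene. Those of the 2 brighter probes exceed the 0.07 of repeated spots. The sign of Itgb1 turned to above 0 after quantile normalization (0.08) and after loess (0.05). It was 0.04 in the authors' series table through that table's scale alone, since relative to the median of all genes Itgb1 lay at −0.02 there and as scaled here.

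The 2 probes of Itgb7, the beta chain that pairs with Itga4 and Itgae, disagreed. The brighter one, designed to a predicted transcript, read 39699 on the array labelled EGR1-deficient against 33738 in WT (0.17). The probe for the curated transcript read 1086 there against 1262 in WT (−0.28). The mean over both was −0.06 with an SD of 0.32, so no direction can be given for this gene.

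Itgae, the alpha chain of CD103 that holds cells to E-cadherin and marks a subset of conventional dendritic cells, was not well above background. Its probes gave signals of 9.77 and 3.30 on the array labelled EGR1-deficient and 5.86 and 4.02 in WT. No fold is given, since both arrays are below the limit of the measurement. Xcr1 and Clec9a, markers of the same conventional subset, were likewise not well above background. The other 10 of the 12 dendritic cell markers were well above it on both arrays. Among these 10, Batf3 read 310 on the array labelled EGR1-deficient against 263 in WT, and Irf8 read 929 there against 873 in WT.

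Itgav encodes CD51, the alpha chain of the vitronectin receptor, which also releases active TGF-beta from its latent complex. Its only probe read 72.9 on the array labelled EGR1-deficient against 96.1 in WT, 1.38-fold lower (−0.47, scanner error 0.22). This was the lowest of the 9 genes, and 7.34% of all genes were at least as far below 0. The signal was dim, and genes of like signal spread widely: the 5th percentile of the 686 genes in its bin was −0.68. Itgav was below 0 in all 8 settings, from −0.53 to −0.33.

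Itgb3, the CD61 chain of the vitronectin receptor and of the platelet fibrinogen receptor, gave opposite signs in its 2 probes. The brighter read 1723 on the array labelled EGR1-deficient, against 1922 in WT (−0.22), and the other 1158 there against 1004 in WT (0.14). The mean was −0.04 with an SD of 0.26. Itga2b, its platelet partner, read 84.3 on the array labelled EGR1-deficient against 82.5 in WT (−0.03).

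**Figure D2:**
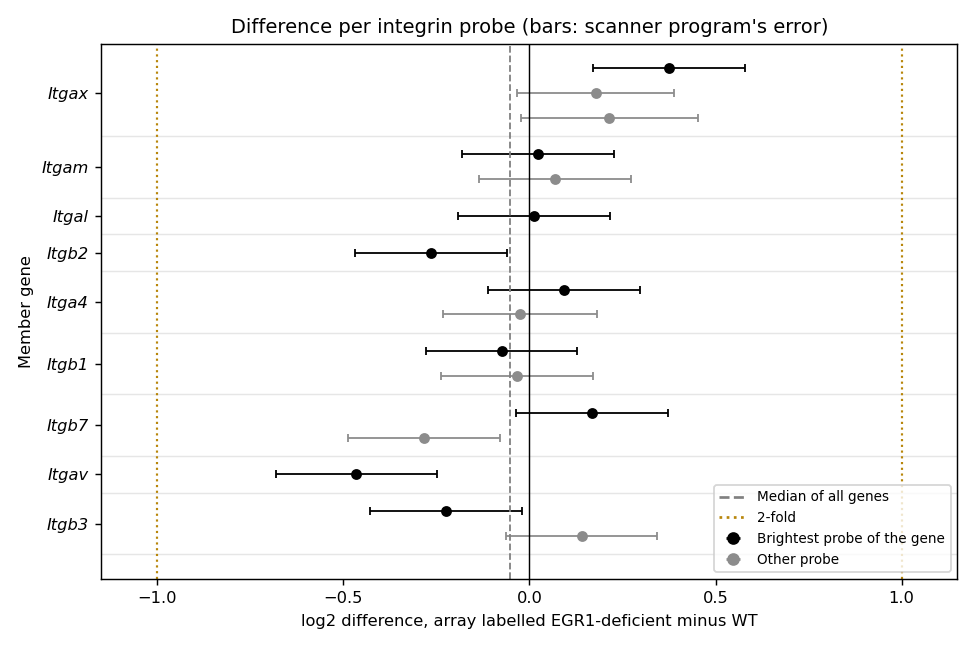
Log2 difference (array labelled EGR1-deficient minus WT) of the 16 integrin probes well above background on both arrays, with the brightest probe of each gene in black, the others in grey, and bars for the scanner program's error of the difference. All 3 Itgax probes lie right of 0, Itgav lies furthest left at −0.47, and no probe reaches the dotted 2-fold lines.

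Of the 6 integrin genes with more than 1 probe above background, 3 had the same sign in all probes: Itgax, Itgam and Itgb1. Over all genes of that kind it was 2295 of 4594. At the smaller step of 1.2-fold, 1 of the 9 integrins was higher (Itgax) and 2 were lower (Itgav, and Itgb2 just at the step), where 14.9% and 21.3% of all genes were. In their bins of mean signal, 8 of the 9 genes lay between the 5th and 95th percentiles. By construction 5% of the genes in a bin lie above that band and 5% below it.

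**Figure D3:**
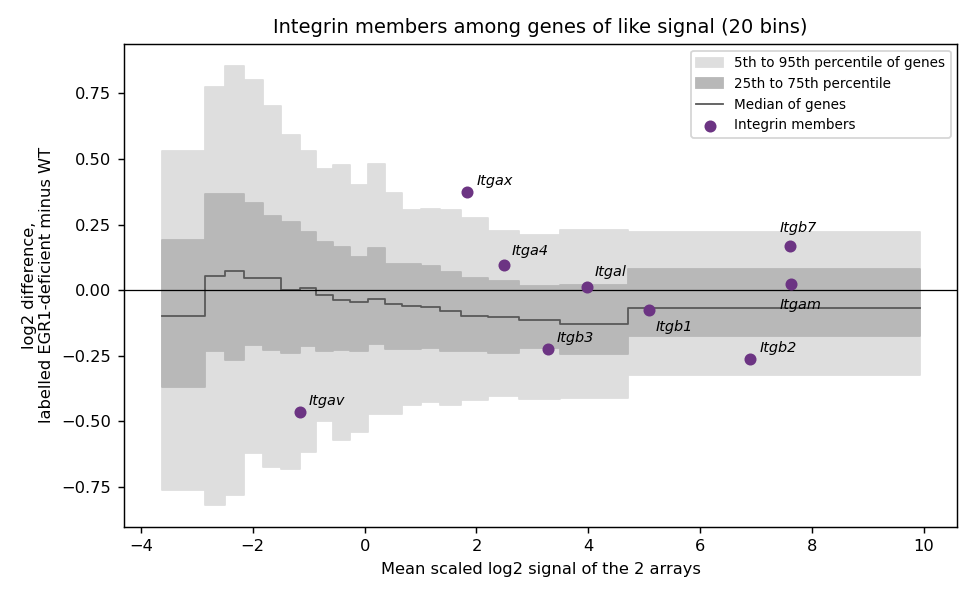
Log2 difference (array labelled EGR1-deficient minus WT) against mean scaled log2 signal, with each integrin as a point over the 5th to 95th and 25th to 75th percentile bands of 13725 genes in 20 bins. Itgax at 0.37 lies above its 5th to 95th percentile band, as 5% of genes in each bin do by construction, and the other 8 genes lie inside theirs.

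Because the chains work in pairs, the difference of each measured alpha chain was set against that of its beta chain. Only beta chains among the members were used. This quantity does not change when an array is multiplied by a constant. For p150,95 the Itgax difference exceeded that of Itgb2 by 0.64 log2 units, or 1.56-fold. It was 0.44 to 0.64 over the 3 Itgax probes and 0.50 to 0.65 over the 8 settings. Carried to a pair of genes, the probe SD comes to 0.23 in the median and 0.44 as a root mean square. For Mac-1 the excess was 0.29 and for LFA-1 0.28, which are close to the median SD and under the root mean square. Each was above 0 in all settings, from 0.28 to 0.31 and from 0.20 to 0.36. All 3 excesses share the single Itgb2 probe, so they are not separate readings of CD18.

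The other pairs involve Itga4 and Itgav. Itga4 exceeded Itgb1 by 0.17, with a range of 0.01 to 0.17 over the probes. Itga4 against Itgb7 gave −0.07, and −0.19 to 0.38 over the probes. Itgav lay below both of its partners among the members, by −0.39 against Itgb1 and by −0.24 against Itgb3. Over the settings the first ran from −0.58 to −0.25 and the second from −0.42 to −0.13, and neither changed sign over the probes.

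Among 16 other integrin chains, 8 were well above background on both arrays, with 5 above 0, 3 below and a median of 0.05. Of all genes with a probe 57.7% were above background on both arrays, and of these 42.6% were above 0 and 57.4% below. Itga10, a collagen-binding alpha chain of cartilage, read 152 on the array labelled EGR1-deficient against 20.5 in WT, 7.06-fold higher (2.82). Its WT reading is near the lowest signal well above background, and its other probe was not above background on both arrays. The difference was 1.16 after normexp, 2.73 to 2.82 in the other settings that measured it, and the authors' series table does not list its spot. Itga11, a collagen-binding chain of fibroblasts, was well above background only in WT, at 3.12 on the array labelled EGR1-deficient against 110 in WT, at least 8.63-fold lower. Each rests on 1 probe. Among stromal markers the matrix gene Col1a2 was at 1.05 and the growth factor receptor Pdgfrb at 0.99, the opposite direction to Itga11. Another 3 of the 7 were detected in the sample labelled EGR1-deficient alone, as were 1296 of all 23786 genes, against 385 in WT alone. Of the 3, Dcn was at least 1.83-fold and Col1a1 at least 1.31-fold higher, and the bound for Col3a1 did not exceed 1. The unscaled stromal signals summed to 210.2 on the array labelled EGR1-deficient against 107 in WT. Lum and Pdgfra were not well above background, and the part of stromal cells was not tested. Itgb4, the hemidesmosome chain of epithelia, read 29.7 on the array labelled EGR1-deficient against 54.6 in WT (−0.94), and was past 2-fold after quantile and loess normalization. Itga5 of the fibronectin receptor was at 0.18, the laminin-binding chain Itga3 at 0.15 (another probe 0.53) and the laminin-binding chain Itga6 at 0.08 (another probe −0.72).

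Of 33 genes that switch integrins on or link them to actin, 30 were above background on both arrays. None was 2-fold apart, 21 were below 0 and 9 above, and the median was −0.10. Of all genes 57.4% were below 0, and 18 of the 30 lay below the median of all genes. Tln1, the talin that binds beta tails, read 1185 on the array labelled EGR1-deficient against 1514 in WT (−0.42), with another probe at 0.21. The actin-linking parvin gene Parvb was at 0.44 (another probe −0.83), the focal adhesion kinase gene Ptk2 at 0.36 and the tyrosine kinase Syk at −0.34 (another probe 0.08). Fermt3, the kindlin of blood cells, was at −0.12. Fermt3, Itgad, Itga2b and the marker genes named here lie outside the rule for named genes and were chosen after their values were seen. The median moved to 0.02 in the authors' series table, whose scale also moved the median of all genes from −0.05 to 0.06.

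Of 24 ligand genes, 16 were above background on both arrays, none 2-fold apart, with 10 below 0 and a median of −0.21. Of all genes 57.4% were below 0, and 9 of the 16 lay below the median of all genes. Emilin1, an extracellular matrix ligand of Itga4 with Itgb1, read 35.6 on the array labelled EGR1-deficient against 57.4 in WT (−0.76). Ltbp1, which stores latent TGF-beta in the matrix, was at −0.68, and the fibronectin gene Fn1 read 9549 there against 13274 in WT (−0.54, another probe −0.32). Icam5, a neuronal ICAM, was the one furthest above 0, at 0.65. The junctional adhesion gene Jam2, the fibrinogen gene Fga and Madcam1 exceeded background on the array labelled EGR1-deficient alone. Of all 23786 genes, 1296 did so, against 385 in WT alone. Jam2 was at least 1.26-fold and Fga at least 1.02-fold higher there, and the bound for Madcam1 did not exceed 1.

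All 10 genes of membrane proteins that sit beside integrins were above background on both arrays and below 0, with a median of −0.18 and none 2-fold apart. Cd36, the fatty acid and thrombospondin receptor, read 270 on the array labelled EGR1-deficient against 434 in WT (−0.75). The tetraspanin Cd151 was at −0.60, the urokinase receptor gene Plaur at −0.38 and Bsg, which encodes basigin, at −0.20. The count was 9 of 10 after quantile or loess normalization. It was 7 of 10 in the authors' series table, whose scale puts 40.2% of all genes below 0, against 57.4% as scaled here. Below the median of all genes there were 9 of 10 on both scales and with the stricter filter. This count was 8 after quantile normalization and with the mean over probes. It was 7 after loess, after normexp and without a filter on dim probes.

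**Figure D4:**
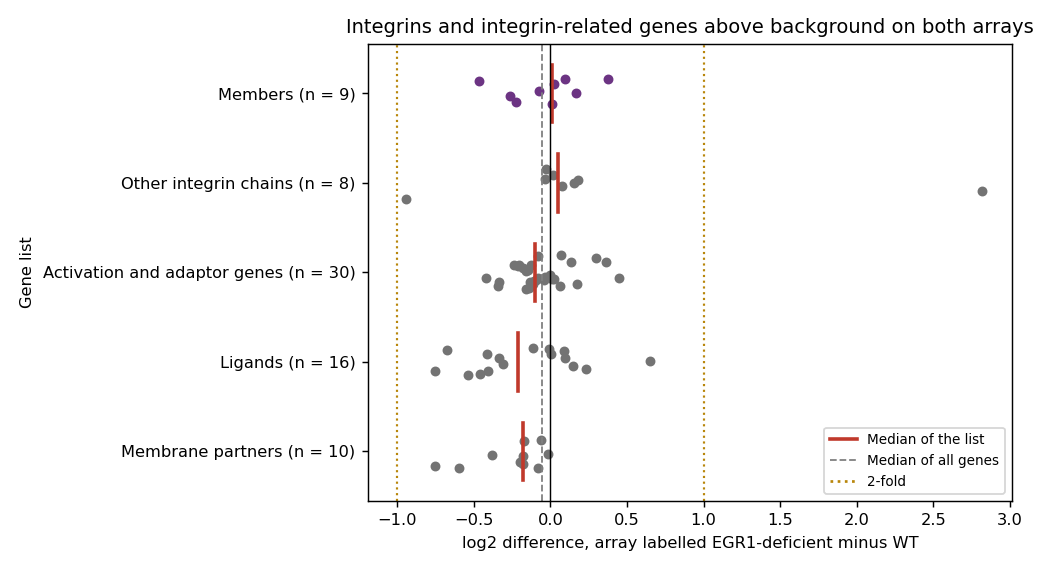
Log2 difference (array labelled EGR1-deficient minus WT) of each gene above background on both arrays, for the integrins (purple) and 4 related lists (grey), with the list median in red. The integrins lie between −0.47 and 0.37, and Itga10 at 2.82 is the one gene past the dotted 2-fold lines.

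Macrophage markers were lower on the array labelled EGR1-deficient by unlike amounts: 10 of 10 were below 0, where 57.4% of all genes were. Their median was −0.38, and they ran from −0.64 to −0.06 (Mrc1), where the median of all genes was −0.05. The macrophage signals summed to 28926 on the array labelled EGR1-deficient against 36456 in WT. Sums here are of unscaled signals, and the 75th percentile was 191.6 on the array labelled EGR1-deficient and 183.0 in WT. The lower macrophage markers stand beside the lower readings of Itgb2 and Itgav and the medians below 0 of the ligands and membrane partners. Their part in these was not tested. Dendritic cell markers, which stand beside Itgax, had a median of −0.02 over 10 of 12 genes above background, of which 4 were above 0 and 6 below, with signals that summed to 47102 on the array labelled EGR1-deficient, against 47071 in WT. They ran from −0.16 to 0.50, with Flt3, the receptor for the growth factor of these cells, as the highest and Ciita next at 0.19. Granulocyte markers, whose cells also carry Itgam and Itgb2, had 5 of 9 above 0 and a median of 0.09, with signals that summed to 62860 on the array labelled EGR1-deficient, against 56244 in WT. Without S100a9 the sums were 24320 there and 23433 in WT, apart by a smaller ratio than the 75th percentiles. For eosinophil, basophil and mast cell markers 6 of 7 genes above background were below 0, with a median of −0.47 and a sum of 3732 on the array labelled EGR1-deficient, against 5094 in WT. Platelet markers, which stand beside Itgb3, had 6 of 8 below 0, a median of −0.23 and a sum of 7333 on the array labelled EGR1-deficient, against 8811 in WT. Osteoclast markers, whose cells carry the vitronectin receptor, had 4 of 5 genes above background on both arrays below 0 and a median of −0.33, with sums of 3477 there and 3600.2 in WT. Another 3 were detected in the sample labelled EGR1-deficient alone, as were 1296 of all 23786 genes, against 385 in WT alone. Of the 3, Calcr was at least 12.8-fold and Ocstamp at least 1.64-fold higher there, and the bound for Ctsk did not exceed 1. Each of these marker counts stands beside the same 57.4% of all genes below 0. The part of these cells in the integrin readings was not tested.

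**Figure D5:**
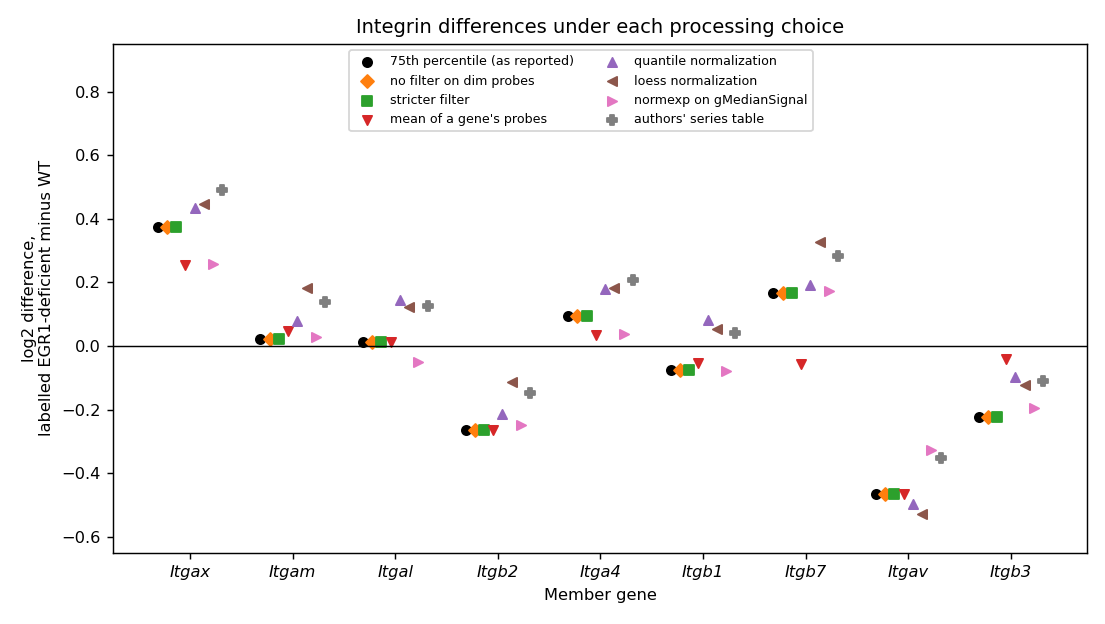
Log2 difference (array labelled EGR1-deficient minus WT) of the 9 integrins above background on both arrays under each of 8 processing settings, 1 symbol per setting. Itgax, Itgam and Itga4 stay above 0 and Itgb2, Itgav and Itgb3 below 0 in all 8, while Itgal, Itgb1 and Itgb7 lie on both sides. The 2 filters leave each value as it is in the reported setting.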

How the data were processed

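RNA of the array labelled EGR1-deficient and the WT array was labelled with Cy3, per the labels' protocols. The values are spot intensities, as the authors deposited them from Agilent Feature Extraction 12.1.0.3, per the file headers. Version 11.5.1.1 stands in the submitters' processing notes. The authors' series table of intensities, with no scaling stated in the sources used here, was an alternative.

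Outlier spots (77 for the array labelled EGR1-deficient, 79 for WT) were left out and repeated spots averaged. A gene stands for its probe of highest mean signal, named by accession in the RefSeq table of assembly GRCm38.p6, while the array files name build mm9. An at-least fold uses the lowest signal well above background on the dim array. The alternatives were quantile, loess, normexp, 2 filters, the mean over probes and the series table, run with limma 3.58.1 in R 4.3.3. Normexp used the median spot signal, chosen after the files were seen because they hold no mean signal. The counting step was tested on simulated data.

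The members and lists were chosen with earlier results of these data known, and the pairs of chains after the values were seen. Named were all members and, per list, genes 2-fold apart, the 4 furthest from 0 and those above background on 1 array. With 2 arrays no likeness of pattern between genes was measured. The number of arrays limits the precision.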

Additional observations from a re-analysis of the deposited data

How the results depend on the processing

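Over the 7 alternatives, no integrin was 2-fold apart, 3 to 5 integrins were below 0, and the integrin median lay between −0.05 and 0.13. The 2 filters among them leave the value of each measured integrin unchanged. Averaging a gene's probes moved Itgb3 to −0.04 and Itgb7 to −0.06. Counts over all genes moved more. Against 97 genes 2-fold or more higher and 138 lower on the array labelled EGR1-deficient, there were 1280 and 971 without a filter on dim probes, 43 and 74 with the stricter filter, and 18 and 33 after normexp. The authors' series table gave 103 and 68, quantile normalization 77 and 174, and loess 73 and 184. Without the filter the median of the other integrin chains was −0.17, since 8 more genes then entered. The cause of the other shifts was not tested. Signal near background limits Itgae, Itga10 and Itga11. No paired analysis was possible because each label has 1 array, and no replicate could be left out.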
